A study of Mus musculus with 16 samples.

Results

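Surface and secreted proteins that mark the progenitor cells of fat were followed across 2 white adipose depots and 2 diets in obese mice. The set is 8 genes, chosen by name with earlier results of these data known. They encode PDGFRA, PDGFRB, DPP4, PI16, CD55, CD34, LY6A (also called Sca-1) and DLK1 (also called Pref-1). Each was found by its current symbol, and each had 1 probe among the 25697 probes of the array, so that 8 of 17916 gene names on the array are described here. Of these, 7 passed the filter for detection and were tested among 11050 genes, and Dlk1 did not pass it.

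Singly housed male C57BL/6J mice made obese by diet gave RNA from a subcutaneous depot, the inguinal fat (iWAT), and from a visceral one, the epididymal fat (eWAT). From 17 to 21 weeks of age all mice ate a purified high-fat diet (Research Diets D12492) with 60% of its energy as fat. The control mice received it alone for 4 weeks, and the scoparia mice received it with 1% by weight of an ethanolic extract of the herb Artemisia scoparia. Each of the 4 groups of depot and diet held 4 Illumina bead arrays, each of whole tissue and labelled with 1 animal number, and the numbers were alike in both depots (1 to 4 for the controls, and 16, 17, 18 and 20 for those given the extract). Arrays are called 1 to 4 within a group, in the order of these numbers. All mice carried the obesity diet, so no lean group enters the comparisons.

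Fat grows partly by making new adipocytes from stromal cells that line its vessels and its connective tissue septa. PDGFRA and PDGFRB are receptor tyrosine kinases for platelet-derived growth factors. The first marks most fibroblast-like adipose progenitors, and the second marks mural cells of vessels and a part of the progenitors. In mouse subcutaneous fat, cells that carry the peptidase DPP4, the secreted peptidase inhibitor PI16 and the complement regulator CD55 form an interstitial pool upstream of committed preadipocytes. CD34, a sialomucin, and LY6A, a lipid-anchored antigen, are used to sort mouse stromal progenitors and are also made by endothelial cells. DPP4 (CD26) and CD55 are carried by lymphocytes as well. DLK1 is a transmembrane relative of the Notch ligands that holds preadipocytes back from differentiation and is lost as they mature. In whole tissue, fewer cells of a type and less RNA per cell cannot be told apart.

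The results turn mainly on Dpp4, Cd55 and Pi16, and their promoter sequences are shown to identify these genes in the genome. Each runs 5′ to 3′ on the gene's strand, from 250 bases before to 50 bases after the start of the RefSeq transcript, in mouse assembly GRCm38.p6. The Dpp4 window lies at chr2:62412182-62412481 on the minus strand, the Cd55 window at chr1:130462695-130462994 on the minus strand and the Pi16 window at chr17:29318632-29318931 on the plus strand. Capitals mark matches, on either strand, to TATAAA (the letters of a TATA box) and GGGCGG (the letters of a GC box), 2 motifs that do not overlap each other here.
Dpp4 promoter: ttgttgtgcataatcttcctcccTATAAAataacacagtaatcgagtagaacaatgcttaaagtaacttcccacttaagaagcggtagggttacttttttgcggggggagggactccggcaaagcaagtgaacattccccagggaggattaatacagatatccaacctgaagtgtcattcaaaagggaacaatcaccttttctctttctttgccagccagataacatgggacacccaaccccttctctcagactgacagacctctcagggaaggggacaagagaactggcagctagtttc
Cd55 promoter: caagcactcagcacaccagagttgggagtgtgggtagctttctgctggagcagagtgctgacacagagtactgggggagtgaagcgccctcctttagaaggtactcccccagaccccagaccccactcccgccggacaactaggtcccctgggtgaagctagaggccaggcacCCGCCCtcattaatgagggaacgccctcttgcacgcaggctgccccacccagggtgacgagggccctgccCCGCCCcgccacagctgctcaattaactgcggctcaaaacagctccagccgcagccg
Pi16 promoter: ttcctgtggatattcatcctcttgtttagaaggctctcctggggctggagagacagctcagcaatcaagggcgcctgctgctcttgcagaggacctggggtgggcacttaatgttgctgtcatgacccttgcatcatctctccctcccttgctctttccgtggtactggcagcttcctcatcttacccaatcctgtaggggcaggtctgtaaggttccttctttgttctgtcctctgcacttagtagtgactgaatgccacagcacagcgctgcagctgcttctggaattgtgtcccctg
The Dpp4 window held 1 match to TATAAA near its upstream end, and 13.6% of all 32851 windows held these letters. The Cd55 window held 2 matches to GGGCGG, which 35.7% of all windows held. The Pi16 window held neither. Its CpG count was 0.14 of that expected from its base composition, against 0.40 for Cd55, 0.26 for Dpp4 and a median of 0.38 over all windows. Of the other members in the table, Pdgfra, Cd34 and Dlk1 held no match to either motif, and their CpG ratios were 0.26, 0.37 and 0.43. Windows for Ly6a and Pdgfrb were not analysed here.

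Between 50.5% and 56.2% of probes were detected per array, and the number of arrays limited the precision. In iWAT, control arrays 1 and 4 had the highest means of 10 adipocyte markers (12.3 and 12.2, on the log2 intensity scale used for all levels below), and the other 6 iWAT arrays lay between 11.2 and 11.8. The means of 7 tested B cell markers and 8 tested T and NK cell markers were widest in iWAT. B cell means ran from 5.42 to 8.73 in iWAT control mice, from 6.97 to 10.4 in iWAT scoparia mice and from 4.92 to 5.86 over both eWAT groups. T and NK cell means ran from 6.94 to 9.56, from 7.82 to 10.9 and from 6.15 to 7.21 in the same order. Skeletal muscle marker means reached 11.7 on iWAT control array 3 and 10.2 on iWAT scoparia array 1, against 6.38 to 6.83 over the eWAT arrays. The labelled depots differed in mesothelial markers, whose means were 4.57 to 4.88 over the iWAT arrays and 7.10 to 8.31 over the eWAT arrays.

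Of the growth factor receptors, Pdgfra was detected on all 16 arrays. Its levels were 9.21, 10.50, 10.87 and 9.43 on iWAT control arrays 1 to 4 and 10.32, 10.47, 10.57 and 10.44 on iWAT scoparia arrays 1 to 4. The eWAT levels of Pdgfra were 10.91, 10.19, 11.35 and 10.85 on control arrays 1 to 4, and scoparia arrays 1 to 4 held 10.81, 11.21, 11.20 and 11.11. The lowest Pdgfra levels were those of iWAT control arrays 1 and 4 and, in eWAT, control array 2, which also had the highest adipocyte marker mean of its depot (12.1). The SD of Pdgfra was 0.81 in iWAT control mice and 0.10 in iWAT scoparia mice (n = 4 each), and the iWAT control range enclosed all the scoparia levels. Pdgfra differed by 0.44 ± 0.31 (SE) between diets in iWAT and by 0.26 ± 0.31 in eWAT, with adjusted p = 0.331 and 0.949 by limma.

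Pdgfra was lower in iWAT than in eWAT at the level of the means, at 10.00 ± 0.81 against 10.83 ± 0.48 (SD, n = 4) in control mice and 10.45 ± 0.10 against 11.08 ± 0.19 in scoparia mice. Neither difference passed the test. It was -0.82 ± 0.31 with adjusted p = 0.0644 in control mice and -0.63 ± 0.31 with adjusted p = 0.239 in scoparia mice, where the groups did not overlap. In control mice the difference was -0.14 without iWAT control arrays 1 and 4, and -1.20 with adjusted p = 0.0138 without animal 2. In scoparia mice it was called in 2 of 31 settings, with adjusted p from 0.0085 to 0.407 by limma. The SE of 0.31 is shared over all 4 groups, of which iWAT control mice had the widest spread (SD 0.81).

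Pdgfrb varied less between groups, and its order among the iWAT control arrays was the reverse of Pdgfra. It stood at 9.06, 8.18, 7.67 and 8.95 on iWAT control arrays 1 to 4, so that arrays 1 and 4 were its highest of all 16. In iWAT scoparia mice Pdgfrb lay between 7.78 and 8.55, with array 4 lowest. The eWAT levels ran from 7.88 to 8.63 in control mice and from 8.15 to 8.55 in scoparia mice, and all 4 groups overlapped. The diet differences of Pdgfrb were -0.16 ± 0.28 in iWAT and -0.03 ± 0.28 in eWAT, with 95% intervals from -0.76 to 0.43 and from -0.62 to 0.57. Its depot differences were 0.15 ± 0.28 under the control diet and 0.01 ± 0.28 under scoparia, and no adjusted p of these 4 comparisons was below 0.708.

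Dpp4 showed the widest spread of the set, 4.01 log2 units over the 16 arrays. It was 6.50, 9.23, 9.79 and 7.39 on iWAT control arrays 1 to 4 and 8.90, 9.60, 10.04 and 10.51 on iWAT scoparia arrays 1 to 4. The same depot of the control mice thus held both the lowest Dpp4 levels, on arrays 1 and 4, and levels inside the scoparia range, on arrays 2 and 3. In eWAT all 8 Dpp4 levels lay between 8.91 and 9.56.

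The mean of Dpp4 in iWAT was 8.23 ± 1.54 in control and 9.76 ± 0.68 in scoparia mice (SD, n = 4), a difference of 1.53 ± 0.54 that did not pass the threshold (adjusted p = 0.0702 by limma). Without iWAT control arrays 1 and 4 the difference was 0.25, with adjusted p = 0.806, and without control array 3 alone it was 2.06, with adjusted p = 0.0081. It passed also without control array 2 (1.87, adjusted p = 0.0336) and without scoparia array 1 (1.82, adjusted p = 0.0493). It did not pass without control array 1 (0.96, adjusted p = 0.224) or control array 4 (1.25, adjusted p = 0.220). Nor did it pass without scoparia array 2, 3 or 4 (adjusted p = 0.111, 0.158 and 0.161 by limma). Dpp4 was called for diet in iWAT in 4 of 30 settings. In eWAT the Dpp4 difference was 0.15 ± 0.54. Its SE is shared over all 4 groups, and the SDs of Dpp4 in eWAT were 0.20 in control and 0.26 in scoparia mice. The difference between the depots' diet effects on Dpp4 was 1.38 ± 0.76 with adjusted p = 0.364. Over the mean of both depots per animal, Dpp4 differed by 0.84 ± 0.34, with adjusted p = 0.201.

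Cd55, the complement regulator, was 1.62-fold higher in iWAT of scoparia than of control mice. Its levels were 9.75, 10.10, 10.18 and 9.69 on iWAT control arrays 1 to 4 and 10.17, 10.33, 10.78 and 11.24 on iWAT scoparia arrays 1 to 4. The groups overlapped slightly, since scoparia array 1 lay just under control array 3. The difference of 0.70 ± 0.21 on the log2 scale had an adjusted p of 0.0494 by limma, close to the threshold of 0.05. Of the 7 tested members, 1 was called in this comparison, and of all 11050 genes 8.8% were called. The Cd55 call was lost without iWAT control array 1 or 4 or scoparia array 2 or 3 (adjusted p = 0.0631 to 0.154 by limma). It was lost also without any 1 eWAT array other than control array 2 (adjusted p = 0.0515 to 0.0656). Without iWAT scoparia array 4 the Cd55 difference was 0.49 with adjusted p = 0.111, and without iWAT control arrays 1 and 4 it was 0.49 with adjusted p = 0.423. With the arrays scaled by their medians in place of quantiles it was 0.48, with adjusted p = 0.086. The spread in this fit comes from all 16 arrays, and when only the 8 iWAT arrays entered it the adjusted p of Cd55 was 0.175.

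In eWAT, Cd55 lay between 9.65 and 10.08 in control mice and between 9.67 and 9.98 in scoparia mice. The diet difference there was -0.01 ± 0.21, with a 95% interval from -0.45 to 0.44. The difference between the depots' diet effects on Cd55 was 0.70 ± 0.30, with adjusted p = 0.260, so it was not called. In scoparia mice Cd55 was higher in iWAT (10.63 ± 0.48) than in eWAT (9.88 ± 0.14), by 0.75 ± 0.21 with adjusted p = 0.0315, or 1.68-fold, and the groups did not overlap. Of the 7 tested members 1 was called in that comparison, and of all genes 10.6%. That call was lost without iWAT scoparia array 3 or 4 (adjusted p = 0.0924 and 0.0865), without any 1 of the eWAT scoparia arrays (0.0547 to 0.090) and with median scaling (0.50, adjusted p = 0.108). In control mice the depots differed by 0.04 ± 0.21.

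Pi16, the peptidase inhibitor that marks universal fibroblasts as well as the interstitial progenitors, was higher in iWAT than in eWAT of control mice. It was 9.48, 11.39, 12.02 and 10.97 on iWAT control arrays 1 to 4 and 9.52, 9.43, 9.94 and 9.70 on eWAT control arrays 1 to 4. Arrays 2, 3 and 4 of iWAT lay above all eWAT control arrays, and iWAT array 1 lay among them. The difference was 1.32 ± 0.43, or 2.49-fold, with adjusted p = 0.0365 by limma. Of the 7 tested members 1 was called in this comparison, against 24.8% of all genes. Without iWAT control array 1 the Pi16 difference was 1.81 with adjusted p = 0.0033. Without iWAT control array 3 it was 0.97 with adjusted p = 0.0759, and it was not called either without iWAT control array 2 or 4 or without any 1 of the eWAT control arrays (adjusted p = 0.0542 to 0.0828).

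In iWAT of scoparia mice Pi16 was 10.14, 10.84, 10.90 and 9.52, and in eWAT of scoparia mice 9.36, 10.44, 9.89 and 10.06. The depot difference under scoparia was 0.41 ± 0.43 with adjusted p = 0.627. Between diets, Pi16 differed by -0.61 ± 0.43 in iWAT and 0.29 ± 0.43 in eWAT, with adjusted p = 0.324 and 0.958. In iWAT, then, the mean of Pi16 was lower and those of Dpp4 and Cd55 were higher under scoparia, with only the Cd55 difference called. Array 4 of iWAT scoparia mice had the highest Dpp4 and Cd55 levels of the study and the lowest Pi16 level of its group.

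**Figure D1:**
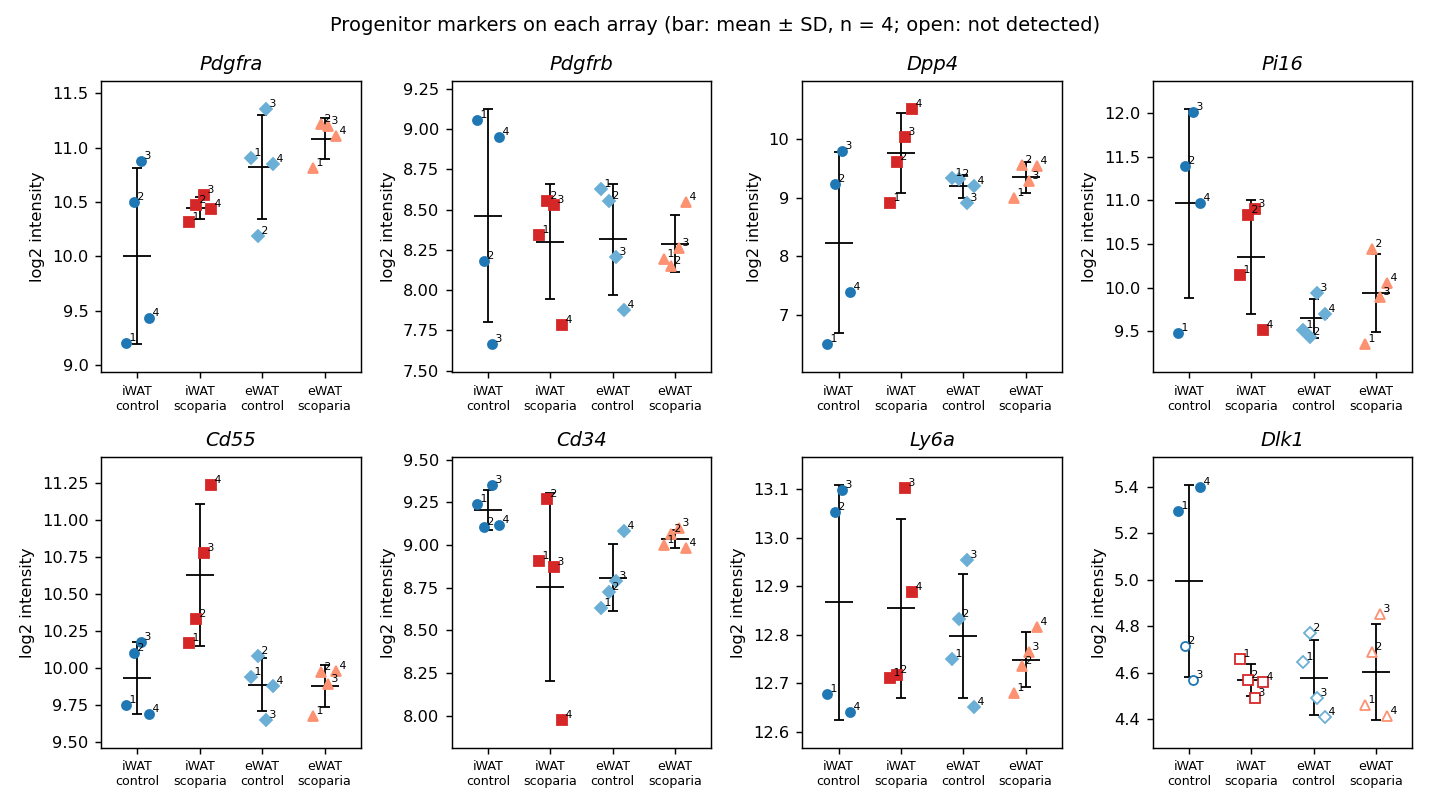
Log2 intensity of each member on each of the 16 arrays (points, numbered by array within the group; open points were not detected), with the mean and SD of the 4 arrays of each group as bars. Dpp4 spans 6.50 to 9.79 among the iWAT control arrays and 8.91 to 9.56 over all eWAT arrays, and Dlk1 is detected on iWAT control arrays 1 and 4 alone.

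Cd34, the sialomucin, was 9.24, 9.10, 9.35 and 9.12 on iWAT control arrays 1 to 4 and 8.90, 9.27, 8.87 and 7.98 on iWAT scoparia arrays 1 to 4. Scoparia array 4 was the lowest of all 16, and scoparia array 2 lay within the control range. The diet difference in iWAT was -0.45 ± 0.21 with adjusted p = 0.155, and -0.19 without scoparia array 4. In eWAT, Cd34 ran from 8.63 to 9.08 in control mice and from 8.98 to 9.10 in scoparia mice, a difference of 0.23 ± 0.21 with adjusted p = 0.938. The difference between the depots' diet effects on Cd34 was -0.68 ± 0.30, with adjusted p = 0.284. In control mice all iWAT arrays lay above all eWAT arrays, by 0.40 ± 0.21 on the means, and the test gave adjusted p = 0.171.

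Ly6a varied least. Its 16 levels lay between 12.64 and 13.10, and the SD within groups was 0.06 to 0.24. Its diet differences were -0.01 ± 0.15 in iWAT and -0.05 ± 0.15 in eWAT, with 95% intervals from -0.33 to 0.31 and from -0.37 to 0.27. Its estimate depended on how the arrays were scaled. With medians in place of quantiles the median of all genes in the iWAT diet comparison moved from -0.06 to -0.16, and Ly6a differed there by -0.51 with adjusted p = 0.0313. The call for Ly6a thus depended on the scaling, with the main setting giving adjusted p = 0.961.

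Dlk1 was detected on iWAT control arrays 1 and 4 only, at detection p-values of 0.0414 and 0.0338, and its scanner intensities of 115 to 146 sat near the lowest scanner signal of the study (92.2). Its levels on iWAT control arrays 1 to 4 were 5.30, 4.71, 4.57 and 5.40. The other 12 arrays lay between 4.41 and 4.85. The 2 arrays with detected Dlk1 were those with the highest Pdgfrb and the lowest Dpp4 and Pdgfra. Without a filter on detection, the iWAT diet difference of Dlk1 was -0.43 ± 0.17 with adjusted p = 0.146.

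When the 4 groups were ordered by mean level for each member, neighbours in that order overlapped in all but 1 of 24 neighbouring pairs. Among the 7 tested members 1 of 21 pairs did not overlap, against 5.91% of such pairs over all tested genes. The exception was Cd34, where iWAT control mice (9.20 ± 0.12, SD, n = 4) lay above eWAT scoparia mice (9.04 ± 0.05). By mean level, Pdgfra was highest in both eWAT groups, and Pi16 was highest in both iWAT groups. Dpp4 and Cd55 were highest in iWAT scoparia mice, and Dpp4 was lowest in iWAT control mice.

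Across the 6 comparisons fitted to the 7 tested members, 3 of 42 differences were called, against 7.38% over all genes in the same comparisons, a share like that of the members. In eWAT no member was called for diet, and no gene at all was called there by limma (0%), with 654 of 11050 genes at an unadjusted p under 0.05. Members' differences for diet in eWAT ran from -0.05 to 0.29, with a median of 0.15 against 0.03 over all genes. In iWAT they ran from -0.61 to 1.53, with a median of -0.01 against -0.06 over all genes. For the difference between the depots' diet effects 0 of 7 members and 0.0543% of genes were called, and over both depots 0 of 7 members and 0% of genes, with 2 members and 1 member at an unadjusted p under 0.05 in the 2 comparisons and 1793 and 2390 genes. The depot differences had a median of 0.07 over members and 0.08 over all genes in control mice, and of 0.11 and 0.02 in scoparia mice.

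**Figure D2:**
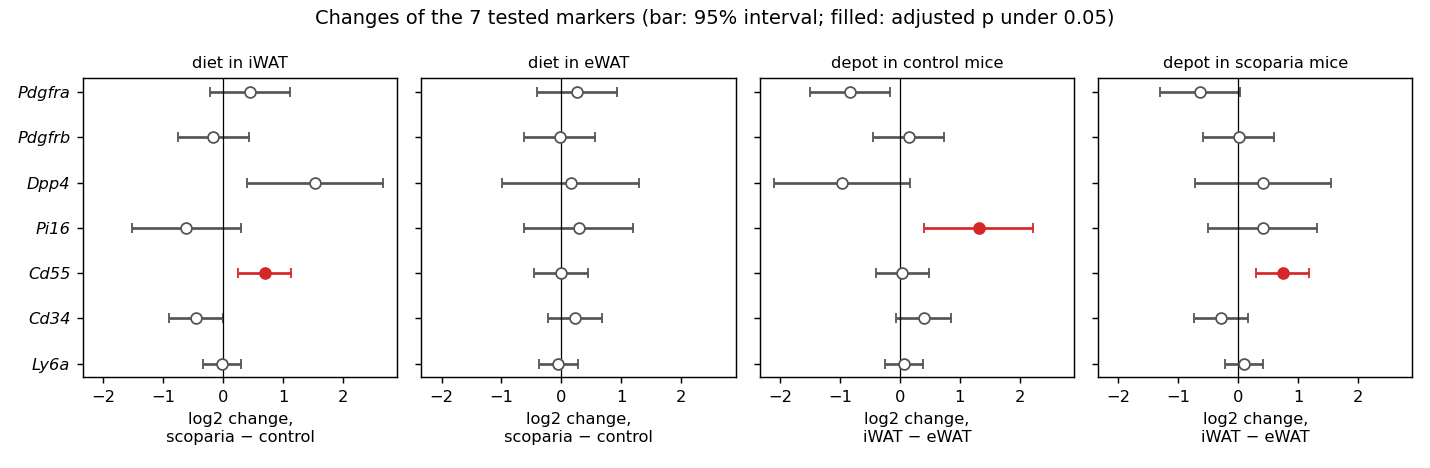
Log2 differences of the 7 tested members with their 95% intervals in 4 comparisons, as scoparia minus control for diet and iWAT minus eWAT for depot; filled points had an adjusted p under 0.05. Cd55 at 0.70 and 0.75 and Pi16 at 1.32 are filled, and the interval of Dpp4 in iWAT, from 0.40 to 2.67, is the widest of the diet panels that lies above 0.

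Lymphocyte, skeletal muscle and adipocyte marker levels on the same iWAT arrays are given here beside Dpp4 and Cd55. On iWAT scoparia arrays 1 to 4 the T and NK cell marker means were 7.82, 8.77, 9.48 and 10.9, the same order as Dpp4 and Cd55 on those arrays. On iWAT control arrays 1 to 4 they were 7.68, 9.56, 6.94 and 7.98, and there the highest Dpp4 and Cd55 levels were on array 3, which had the lowest mean of these markers. The B cell marker means were 6.97, 8.34, 9.48 and 10.4 on iWAT scoparia arrays 1 to 4, again in the order of Dpp4 and Cd55. On iWAT control arrays 1 to 4 they were 5.42, 8.73, 7.03 and 6.76, so arrays 2 and 3, with the higher Dpp4 and Cd55 levels, also had the higher B cell means. All 8 tested T and NK cell markers and all 7 tested B cell markers were higher on the means in scoparia than in control iWAT, with medians of 1.20 and 1.88. Of them 1 was called, against 8.8% of all genes. It was Prf1, the pore-forming perforin of killer cells, at 1.59 ± 0.34 with adjusted p = 0.0209. Skeletal muscle marker means on iWAT control arrays 1 to 4 were 6.87, 9.39, 11.7 and 7.16, the order of Dpp4 there. On iWAT scoparia arrays 1 to 4 they were 10.2, 6.98, 9.50 and 8.02, not in the order of Dpp4. Adipocyte marker means were 12.3, 11.7, 11.8 and 12.2 on the control arrays. On the scoparia arrays they were 11.8, 11.6, 11.4 and 11.2, the reverse of the Dpp4 order. The part of these cell types in the Dpp4 and Cd55 results was not tested.

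**Figure D3:**
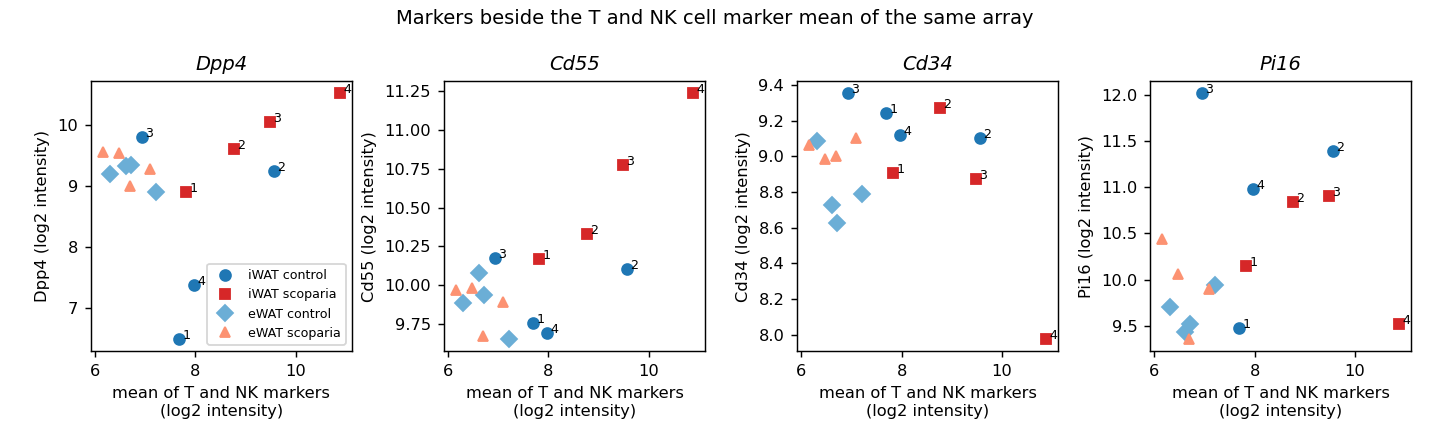
Log2 intensity of 4 members on each array against the mean log2 intensity of the 8 tested T and NK cell markers of the same array, with iWAT arrays numbered within their group. iWAT scoparia array 4, with the highest marker mean of 10.9, has the highest Dpp4 (10.51) and Cd55 (11.24) and the lowest Cd34 (7.98).

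Of the other genes of the interstitial progenitor state, 0 of 7 were called for diet in either depot. Their diet differences in iWAT ran from -0.64 to 0.71 with a median of -0.18. Anxa3, an annexin of that state, differed by 0.65 and Sema3c, a semaphorin, by 0.71, while Wnt2 differed by -0.64 and the microfibril gene Fbn1 by -0.35, none of them called. Between depots in control mice 2 of the 7 were called higher in iWAT and 2 lower, against 24.8% of all genes called in either direction. Wnt2 was higher by 1.64 ± 0.50 and Ly6c1, a relative of Ly6a, by 0.59 ± 0.18, and Anxa3 and Fbn1 differed by -1.09 ± 0.30 and -0.74 ± 0.25, with adjusted p from 0.0176 to 0.0432. In scoparia mice Fbn1 alone was called, at -1.11 ± 0.25 with adjusted p = 0.0089, and of all genes 10.6%.

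Of 10 genes of committed preadipocytes, 0 were called for diet and, against 24.8% of all genes, 1 for depot in control mice. That gene was Cxcl14, a chemokine, at 9.99 in iWAT and 7.45 in eWAT, a difference of 2.54 ± 0.37 with adjusted p = 0.000488. In scoparia mice it differed by 0.99 and was not called. Of 7 tested genes of regulatory stromal cells, 0 were called for diet. Mgp, which encodes an inhibitor of calcification, was lower in iWAT by both depot comparisons, at -1.92 ± 0.31 and -2.60 ± 0.31. In scoparia mice Clec11a (-1.02) and Vit (-0.98) were also lower and the homeobox gene Meox2 was higher (0.95), with adjusted p from 0.0134 to 0.0495.

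Among 13 genes of fibroblasts at large, 1 was called for diet, in iWAT, where 8.8% of all genes were called. Cd248, which encodes endosialin, a surface glycoprotein of fibroblasts and pericytes, was 10.96 in control and 10.11 in scoparia iWAT, a difference of -0.85 ± 0.22 with adjusted p = 0.0349, and the groups did not overlap. With the 8 iWAT arrays fitted alone, limma called 0 genes for diet, with 2618 of 11050 at an unadjusted p under 0.05, so the diet calls of Cd248, Podxl2, Abcc9 and Prf1 were lost there. Between depots 4 of the 13 were called higher in iWAT and 3 lower in control mice, and 2 higher and 3 lower in scoparia mice. The shares of all genes called in either direction were 24.8% and 10.6%. Thy1, the lipid-anchored CD90, was higher in iWAT by 1.25 ± 0.30 and 1.44 ± 0.30. T and NK cell markers had medians of 1.73 and 3.12 in the same comparisons, and their part in the Thy1 difference was not tested. Dpt, encoding dermatopontin, was higher by 0.80 and 0.78, and the microfibril gene Mfap5 differed by -1.06 and -1.57. Genes of this list were thus called in both directions between depots. Among members, Pi16 in control mice and Cd55 in scoparia mice were called higher in iWAT. Pdgfra was lower there on the means in both diets and was not called in the reported fit.

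For the receptors, the ligand and effector list held 8 tested genes, and none was called for diet in either depot or for depot in control mice. The ligand gene Pdgfc was lower in iWAT than in eWAT of scoparia mice, at -0.95 ± 0.26 with adjusted p = 0.0271. Pdgfa and Pdgfb differed by -0.13 and -0.17 between diets in iWAT. The kinase subunit gene Pik3r1 differed by 1.01 in iWAT with adjusted p = 0.0938. Mural cells, which also carry PDGFRB, had 1 of 10 markers called for diet in iWAT, the channel subunit gene Abcc9, at 0.72 ± 0.19 with adjusted p = 0.0344. Of these markers 3 were called higher in iWAT in each depot comparison, and Notch3, at 1.06 and 0.94, was among them both times. Endothelial markers, of cells that also make CD34 and LY6A, had 0 of 10 called for diet, with 4 called higher in iWAT of control mice and 3 in that of scoparia mice. Over all genes, in either direction, 8.8% were called for diet in iWAT, and 24.8% and 10.6% for depot in control and scoparia mice.

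Of the Dlk1 relatives and Notch genes, 0 of 7 were called for diet. Between depots 2 were called lower in iWAT of control mice, against 24.8% of all genes called in either direction. Adam17, the shedding protease, differed by -1.41 ± 0.40 with adjusted p = 0.0198. Sox9, a transcription factor of chondrocytes and their precursors, was detected on no iWAT control array and was at least 1.12-fold lower there, a bound set against the lowest signal detected on each array, with adjusted p = 0.0133. Among relatives of the other members, Podxl2, a sialomucin of the CD34 family, was lower in scoparia than in control iWAT, at -0.94 ± 0.26 with adjusted p = 0.0414, and it was higher in iWAT than in eWAT of control mice by 0.79 ± 0.26. Podxl, of the same family, was higher in iWAT of control mice by 0.83 ± 0.23. Dpp7, another dipeptidyl peptidase, differed between depots by -1.19 ± 0.27 in scoparia mice. Ly6e and Ly6d, of the LY6A family, were higher in iWAT of scoparia mice, Ly6e by 1.60 ± 0.44 and Ly6d, detected on no eWAT scoparia array, at least 17.4-fold. Probes of closely related genes, such as Cd55 and Cd55b, may share targets, and this was not tested.

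**Figure D4:**
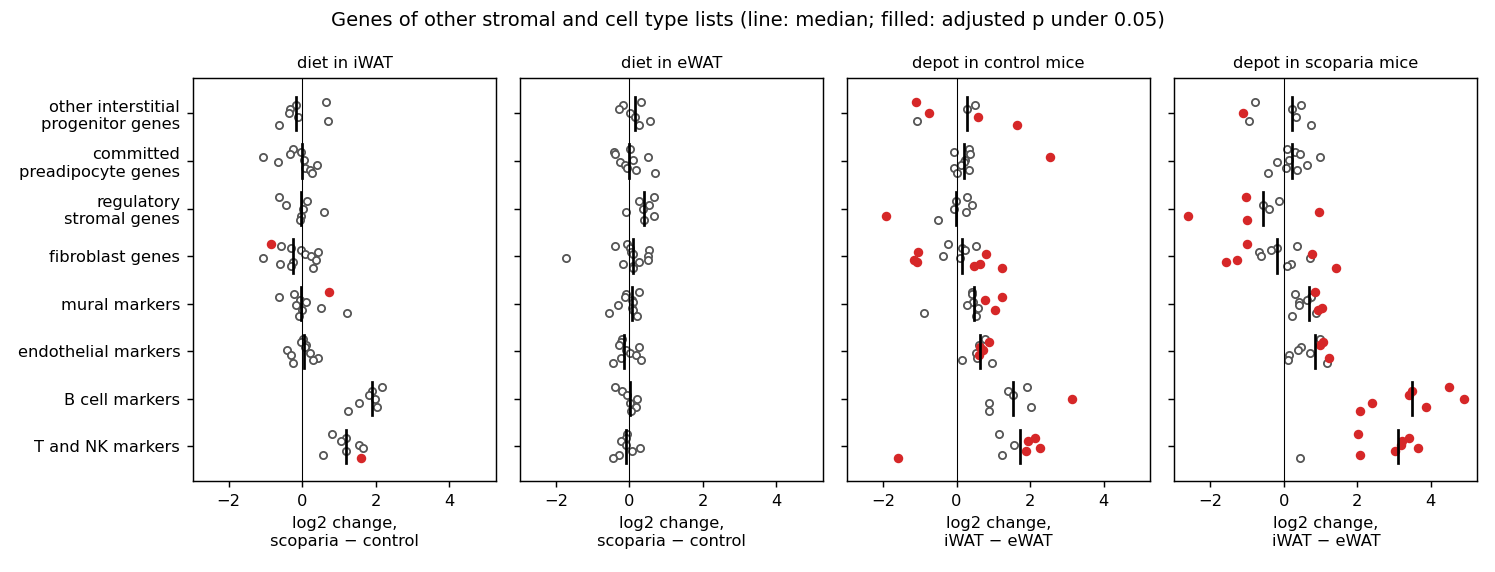
Log2 differences of the tested genes of 8 lists in 4 comparisons (points; filled where the adjusted p was under 0.05) with the median of each list as a line. Diet differences of the stromal lists lie on both sides of 0 in iWAT, where B cell and T and NK cell markers have medians of 1.88 and 1.20, and the lymphocyte medians in eWAT are 0.02 and -0.09.

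The genes whose levels followed each member most closely over the 16 arrays are given as a description, the 3 highest Pearson correlations of 10387 genes. All points share the arrays and their depots, so a correlation here can rest on the difference between depots. Pdgfra was most like Chmp1b (r = 0.97), Fem1b (0.97) and Anxa3 (0.97), the last a gene of the interstitial list, and r ran from 0.88 to 0.98 within the depots. Pdgfrb was most like B3gnt3 (0.88), Pdgfb (0.88) and Cracr2b (0.85), and its r with Pdgfb was 0.97 over the 8 iWAT and 0.67 over the 8 eWAT arrays. Dpp4 was most like Brwd1 (0.97), Zcchc7 (0.96) and Smg1 (0.96), with r of 0.98 to 0.99 in iWAT but 0.27, 0.67 and -0.32 in eWAT. Cd55 was most like Klra13-ps (0.95), Spo11 (0.94) and Ddb2 (0.93), with r of 0.95 to 0.98 in iWAT and 0.22 to 0.57 in eWAT. For Dpp4 and Cd55, then, the likeness rested on the iWAT arrays.

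Pi16 was most like Nipal2 (0.90), Slc47a1 (0.84) and Drp2 (0.84), with r of 0.75 to 0.96 within the depots. Cd34 was most like Fkbp7 (0.89), Osbpl2 (0.89) and Cpped1 (0.88), with r of 0.91 to 0.96 in iWAT and 0.69 to 0.88 in eWAT. Ly6a was most like Mob3c (0.85), Maneal (0.84) and Poli (0.77), with r of 0.81 to 0.88 in iWAT and 0.51 to 0.87 in eWAT. No member was among the genes compared, and no gene was on the list of more than 1 member.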

How the data were processed

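Whole-tissue RNA of 16 samples was measured on bead arrays from 400 ng each. Per the file headers, the authors deposited a scanner table that pairs each probe's average intensity with its detection p-value, and a table of normalized intensity, which the series value table repeats (largest difference 0). The deposited intensities are linear. GenomeStudio and limma 3.18.13 appear in the submitters' processing notes; the sources used here do not say what each did. The number of unmapped value columns was 0.

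The scanner intensities were corrected with neqc (limma 3.58.1, R 4.3.3; a normal-exponential background fit that uses the detection p-values, offset 16, quantile normalization, log2). Probes with detection p under 0.05 on at least 4 of 16 arrays were kept (15052), and the kept probe with the highest mean stood for each of 11050 genes. Names were updated through RefSeq gene tables of GRCm38.p6, used for names only; the promoter windows are RefSeq's of the same assembly. Of 25697 probes 20736 matched a current symbol, 3872 a synonym of 1 gene, and 104 and 985 kept the array's name.

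Comparisons used lmFit and eBayes on 4 group means over all arrays, so that groups shared 1 estimate of the spread, with Benjamini-Hochberg adjustment over all 11050 genes and an adjusted p under 0.05 as the threshold. Diet over both depots was fitted to 8 animal means. For a gene that no array of a group detected, the fold is a lower bound against the lowest detected signal of each array. As a check of the code, the fit was run on simulated data. Its noise was independent between genes and arrays and alike in all groups, so shared array effects were not covered. The labels do not say whether RNA came from separate tissue pieces, so the p-values reflect variation among these samples, which may be technical in part.

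Animal numbers in the labels are alike in both depots and were taken as pairing them. The deviations of an animal's arrays from their group means correlated at -0.207 to 0.315, above 0.1 in 4 of 8 animals. The members and the 16 gene lists (151 genes) were chosen with earlier results of these data known. Named were every member, up to 4 genes of each stromal or pathway list by p (up to 3 of each cell type list) with all called genes where these were 6 or fewer, and the 3 genes most like each member. Alternatives were the scaling, background, offset, filter, probe choice, the authors' table, array weights, a trended prior, only the arrays compared, the animal as a block, and leaving out arrays.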

Additional observations from a re-analysis of the deposited data

How the results depend on the processing

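No called difference of a member changed sign under 31 alternative settings. For diet in iWAT, 1 member was called in the reported fit. It was 0 with detection required on 1 array, with no filter, with every kept probe tested, with only the arrays compared, with array weights and without iWAT control arrays 1 and 4; it was 2 without control animal 2 in both depots. Leaving out 1 array gave 0 to 2. Cd55 was called in 11 of 30 settings there (0.48 to 0.85, adjusted p 0.0204 to 0.423). Median scaling kept the count at 1, with Ly6a in place of Cd55, and called 665 genes higher and 1231 lower, against 487 and 485. For diet over both depots 0 members became 2 with array weights, and 0 to 1 without 1 array. For depot in control mice 1 became 2 with median scaling, 0 with no filter and 0 with only the arrays compared, and 0 to 2 without 1 array; Pi16 was called in 21 of 31 settings (0.97 to 2.05), and without control animal 2 Pdgfra was called in its place. For depot in scoparia mice 1 became 0 with median scaling, 2 with only the arrays compared and 3 with array weights, and 0 to 1 without 1 array; Cd55 was called in 24 of 31 settings (0.50 to 0.90). With the animal as replicate block the adjusted p was 0.0254 for Pi16 in control mice and 0.0392 for Cd55 in scoparia mice, and no member's call changed; over all genes, the 6 calls for the difference between depots became 0.

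Of the 39 differences that were not called, 9 were called under at least 1 setting and 19 changed sign under at least 1. The 972 genes called for diet in iWAT became 5 and 0 without iWAT control arrays 1 and 4 in turn, 4 without both, 2051 and 3050 without control arrays 2 and 3, 201, 0 and 243 without scoparia arrays 2, 3 and 4, 371 with array weights and 0 with the iWAT arrays alone. Of the eWAT arrays, leaving out control array 2 gave 1524 and control array 1 gave 602, with 556 to 643 for the scoparia ones. The cause was not tested. Of the list genes called for diet in iWAT, Prf1 was called in 24 of 29 settings, Cd248 in 22 of 29, Abcc9 in 21 of 29 and Podxl2 in 13 of 28, with no change of sign. Dlk1, near background, entered only the settings with a looser filter or none.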

Other observations

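Other cell types of the tissue differed between the depots in the same arrays. Between depots 24.8% of all genes were called in control mice and 10.6% in scoparia mice, in either direction. All 8 tested macrophage markers were called lower in iWAT than in eWAT in both diets, among them Cd68, a lysosomal protein of macrophages, at -2.37 ± 0.35 in control and -2.56 ± 0.35 in scoparia mice. Of 8 tested mesothelial markers, which mark the lining that covers epididymal fat, 7 were called lower in iWAT of control mice and 8 in iWAT of scoparia mice, and Upk1b, a uroplakin, was at least 16.8-fold and 32.1-fold lower there, since no iWAT array detected it. Of 10 adipocyte markers 5 were called higher in iWAT of control mice, among them Cfd, the adipokine adipsin, at 1.00 ± 0.27 with adjusted p = 0.0152 by limma, and 0 were called in scoparia mice. These shifts stand beside the depot differences of Pi16, Cd55 and Pdgfra, and their part in them was not tested.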
